A study of Mus musculus with 4 samples.

Results

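The mRNAs of the somatic cells of the testis were compared between RNA pulled down with an antibody to LARP7 and RNA pulled down with IgG. The set holds 32 genes of 50600 gene models, chosen by symbol: 12 genes typical of Sertoli cells, 10 of Leydig cells, 4 of peritubular muscle-like cells, 3 of vascular endothelium and 3 of macrophages. All 32 symbols were found, each as 1 protein-coding model. The libraries came from testes of 8-week-old C57BL/6 mice, with no other genotype or treatment given. There were 2 groups of 2 libraries, a LARP7 RIP (replicates 1 and 2, abcam antibody to LARP7) and an IgG RIP (replicates 1 and 2, Millipore IgG). In RNA immunoprecipitation (RIP), antibody on beads draws a protein with its RNAs from a tissue lysate, and IgG measures the RNA that sticks without it. The inserts were 15 to 300 nt long, so an mRNA was read only as short pieces.

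LARP7 is a La-related protein best known for binding 7SK, the non-coding RNA that restrains the elongation factor P-TEFb, and U6, a spliceosomal RNA. Inside the seminiferous tubule, Sertoli cells nurse the germ cells and seal the blood-testis barrier. Leydig cells lie between the tubules and turn cholesterol into testosterone. The whole testis was lysed, so the mRNAs of all these cells and of the far more numerous germ cells met the beads together.

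Expected counts, RSEM's estimates of reads per gene, summed to between 4411271 and 6994514 per library. Protein-coding genes held 14.9% and 20.4% of them in the LARP7 libraries against 42.3% and 38.3% in the IgG libraries. How libraries are scaled therefore sets the level of every mRNA fold change: the median log2 fold change (LARP7 over IgG) of protein-coding genes was -0.25 with TMM factors, which centre the bulk of the genes, and -1.67 with library totals. Separate mice for the replicates are not named in the labels, and every p-value below reflects only how far these libraries lay apart, a spread that may be technical. The labelled tissue was checked on its germ cell mRNAs. Prm1, the protamine mRNA of elongating spermatids, had 50, 41, 782 and 368 counts in LARP7 replicates 1 and 2 and IgG replicates 1 and 2, the order kept for all counts in this text.

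The somatic mRNAs were present but sparse. Of all counts, the 32 members together made up 0.0107% ± 0.000585 (SD, n = 2) after LARP7 RIP and 0.0355% ± 0.00698 (SD, n = 2) after IgG RIP. None was without counts, and 24 had enough to be tested. With TMM scaling, 1 of these 24 passed the edgeR quasi-likelihood test as higher in the LARP7 RIP and 1 as lower (adjusted p under 0.05). In the same test 14.5% of all 12234 genes were higher and 9.69% lower; among the 9929 protein-coding genes it was 11% and 10.5%. The median log2 fold change of the 24 was -0.35, beside -0.25 for protein-coding genes and -0.05 for all genes, and 19 of the 24 lay within 2-fold of equal. With library totals 0 members were higher and 15 lower. Under that scaling 3.95% of all genes were higher and 47.1% lower, and among protein-coding genes 1.99% were higher and 52.1% lower, 54.1% in either direction. The library-total CPM of both LARP7 libraries lay below both IgG libraries for 21 of the 24 members and above them for 1, against 63.9% and 9.75% of all genes and 70.3% and 6.36% of protein-coding genes. In simulated data on 10720 genes of this design, none of 43 genes with a true 2-fold change passed the test, and with a 4-fold change 16 of 46 did. Of the 135 calls there, 25.2% were false. Far fewer genes were changed than the 2957 of 12234 called in the real fit, so the adjustment was stricter in the simulation. Its shares therefore do not give the power or the false share of the real fit. Changes of 2-fold to 4-fold could still pass unseen.

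**Figure D1:**
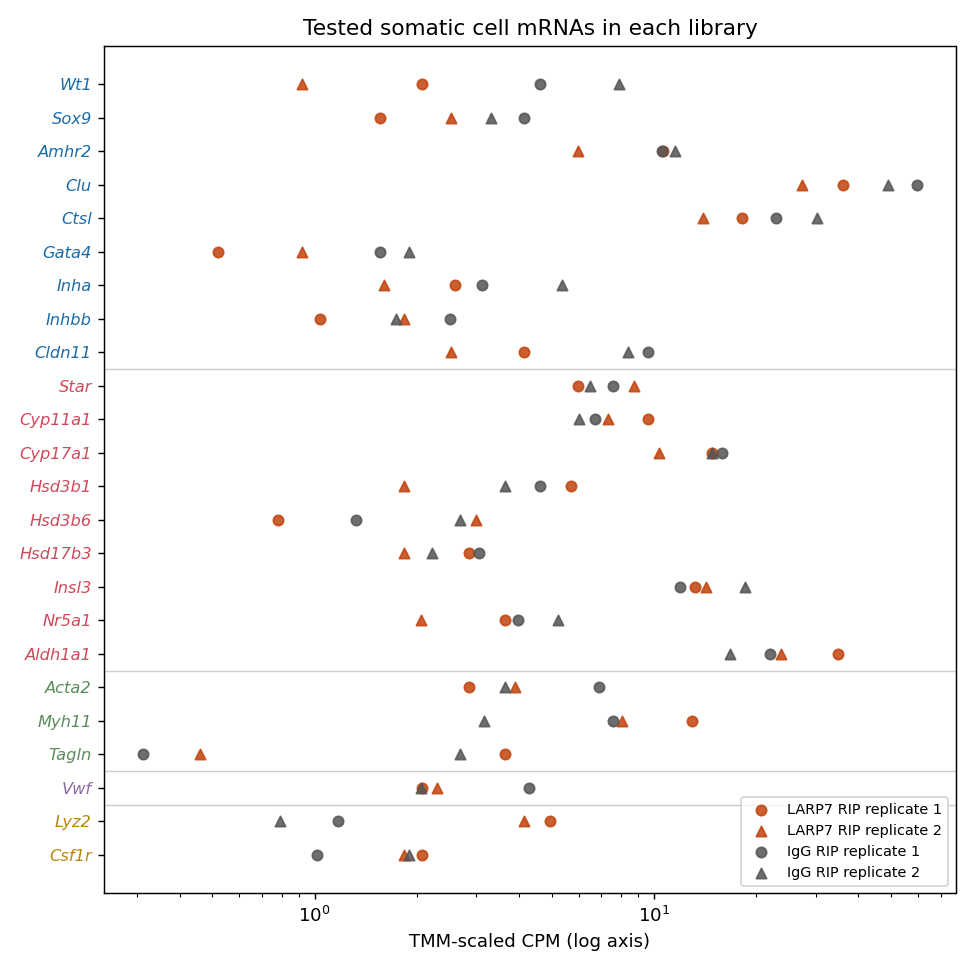
Each row is 1 of the 24 tested somatic mRNAs and each point its TMM-scaled CPM (counts scaled to a common library size, log axis) in 1 library; orange is the LARP7 RIP, grey the IgG RIP, circles replicate 1 and triangles replicate 2, and label colours mark the cell type. The orange points lie left of the grey ones in 7 of the 9 Sertoli rows and in 2 of the 9 Leydig rows.

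The Sertoli cell mRNAs had the lowest median of the 5 cell types in the set. All 9 tested members had log2 fold changes below 0 with TMM, from -2.05 to -0.41, with a median of -0.86, and 56.5% of protein-coding genes had a value below 0. Wt1, Sox9, Gata4, Inha and Inhbb reached the count needed for testing in both IgG libraries but not in both LARP7 libraries. For such genes the count filter favours a value below 0, so the shared sign is a description and no test. In 7 of the 9, both LARP7 libraries had less TMM-scaled CPM than both IgG libraries, a pattern found in 39.5% of protein-coding genes. With library totals all 9 were again below 0, with a median of -2.27, and 8 of 9 were called lower. Under that scaling a negative sign was common: 23 of the 24 tested members had one. Among protein-coding genes 52.1% were called lower, with a median of -1.67. Only Wt1 was called with TMM.

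Wt1 encodes the zinc finger factor that Sertoli cells need from the fetal gonad onward (ENSMUSG00000016458, chromosome 2, 105126529 to 105173614, GRCm38.p6). It had 8 and 4 counts in the LARP7 libraries against 59 and 50 in the IgG libraries, and the groups did not overlap. In TMM-scaled CPM this was 1.498 ± 0.821 against 6.26 ± 2.33 (SD, n = 2 each), a log2 fold change of -2.05 (SE 0.67, edgeR adjusted p = 0.0448). Wt1 had a lower fold change than all but 4.83% of the 2482 protein-coding genes in its quartile of mean expression. The call was lost without LARP7 replicate 1 (-2.75, edgeR adjusted p = 0.0631), LARP7 replicate 2 (-1.57, 0.276) or IgG replicate 2 (-1.57, 0.147), and stayed without IgG replicate 1 (-2.39, 0.0161). DESeq2 gave -2.11 with an adjusted p of 0.131.

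Cldn11, the claudin of the blood-testis barrier, came next, and is given in full because of its unadjusted p of 0.0170, a choice made after its values were seen. It had 16 and 11 counts against 123 and 53, or 3.34 ± 1.15 against 8.996 ± 0.865 CPM (SD, n = 2 each). Its log2 fold change of -1.43 (SE 0.51) missed the threshold (edgeR adjusted p = 0.0623). Clu, the secreted chaperone clusterin, was the most counted member of the whole set, with 139, 119, 763 and 310 counts. Its CPM was 31.7 ± 6.23 against 54.3 ± 7.47 (SD, n = 2 each), with both LARP7 libraries below both IgG libraries, and its log2 fold change was -0.78 (SE 0.44, edgeR adjusted p = 0.208). Ctsl, the lysosomal protease cathepsin L, had 70, 61, 294 and 191 counts and a log2 fold change of -0.72 (SE 0.39, edgeR adjusted p = 0.193). For Clu and Ctsl the groups stood apart, but the test did not call a difference of this size.

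The transcription factors and hormone genes of Sertoli cells had fewer reads. Gata4, a factor of both Sertoli and Leydig cells, had 2, 4, 20 and 12 counts and a log2 fold change of -1.22. Sox9, the testis-determining factor downstream of Sry, had 6, 11, 53 and 21 counts and -0.86. Inha and Inhbb encode the alpha and beta B chains of inhibin, the hormone that restrains FSH release. Inha had 10, 7, 40 and 34 counts and -1.001, with no overlap of the groups, and Inhbb 4, 8, 32 and 11 counts and -0.56, where they overlapped in CPM. Amhr2, the receptor of anti-Müllerian hormone, had 41, 26, 135 and 73 counts and the value nearest to 0, -0.41, with overlapping groups. None of these 5 was called (edgeR adjusted p from 0.276 to 0.614).

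The remaining 3 Sertoli members had too few counts to be tested. Dhh, the hedgehog ligand read by Leydig and peritubular cells, had 2, 1, 16 and 2 counts. Gata1, a factor shared with blood cells, had 0, 3, 4 and 9. Fshr, the FSH receptor, had 2 counts in IgG replicate 1 and 0 in the other libraries. Taking 3 counts as the limit that a count of 0 allows, its level was up to 0.434 and 0.461 CPM of library totals in LARP7 replicates 1 and 2, counting error only.

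The Leydig cell mRNAs lay close to the bulk of the protein-coding genes. Of 9 tested members 0 were higher and 0 lower with TMM (edgeR; 0 also by DESeq2, and 0 with an unadjusted p under 0.05 in edgeR). Their median log2 fold change was -0.14, with a range from -0.69 to 0.59 and values below 0 in 6 of 9. In 2 of the 9 the LARP7 libraries lay below the IgG libraries and in 2 above; among protein-coding genes the shares were 39.5% and 28.3%. The signs depended on the scaling: with library totals all 9 lay below 0, and 5 were called lower, a share near the 52.1% of protein-coding genes called lower under that scaling.

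The steroid synthesis pathway was read from its first step to its last. Star, the carrier that brings cholesterol into mitochondria, had 23, 38, 97 and 41 counts and a log2 fold change of 0.06. Cyp11a1, the side-chain cleavage enzyme that makes pregnenolone, had 37, 32, 86 and 38 counts and 0.41. Cyp17a1, which makes the androgen precursors, had 57, 45, 204 and 94 counts, 12.6 ± 3.17 against 15.4 ± 0.753 CPM (SD, n = 2 each), and -0.30 (SE 0.41, edgeR adjusted p = 0.613). Hsd17b3, which makes testosterone, had 11, 8, 39 and 14 counts and -0.18. Along the pathway the TMM values thus stayed within 2-fold of equal.

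Hsd3b1 and Hsd3b6 encode near-identical 3-beta-hydroxysteroid dehydrogenases, and their reads can be split wrongly. Hsd3b1 had 22, 8, 59 and 23 counts (log2 fold change -0.15) and Hsd3b6 had 3, 13, 17 and 17 (-0.04). LARP7 replicate 1 held more Hsd3b1 and replicate 2 more Hsd3b6, so each gene's values overlapped between the groups. Summed, the pair had 25, 21, 76 and 40 counts, or 5.66 ± 1.19 against 6.13 ± 0.277 CPM (SD, n = 2 each). RSEM's posterior SD was at most 5.65% and 7.10% of the count for the 2 genes.

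Aldh1a1, a retinaldehyde dehydrogenase found in Leydig and also Sertoli cells, had the most counts of this group: 134, 103, 281 and 106. Its CPM was 29.2 ± 7.91 against 19.4 ± 3.66 (SD, n = 2 each), with the LARP7 libraries above the IgG libraries, and its log2 fold change 0.59 (SE 0.40, edgeR adjusted p = 0.294). With library totals it was -0.87, on the other side of 0. Insl3, the peptide hormone of testis descent, had 51, 62, 153 and 117 counts and -0.14 with overlapping groups. Nr5a1, the factor SF-1 that drives steroid enzyme genes, had 14, 9, 51 and 33 counts and the lowest value, -0.69, with the LARP7 libraries below. Lhcgr, the LH receptor, had 4, 2, 13 and 0 counts and was not tested.

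**Figure D2:**
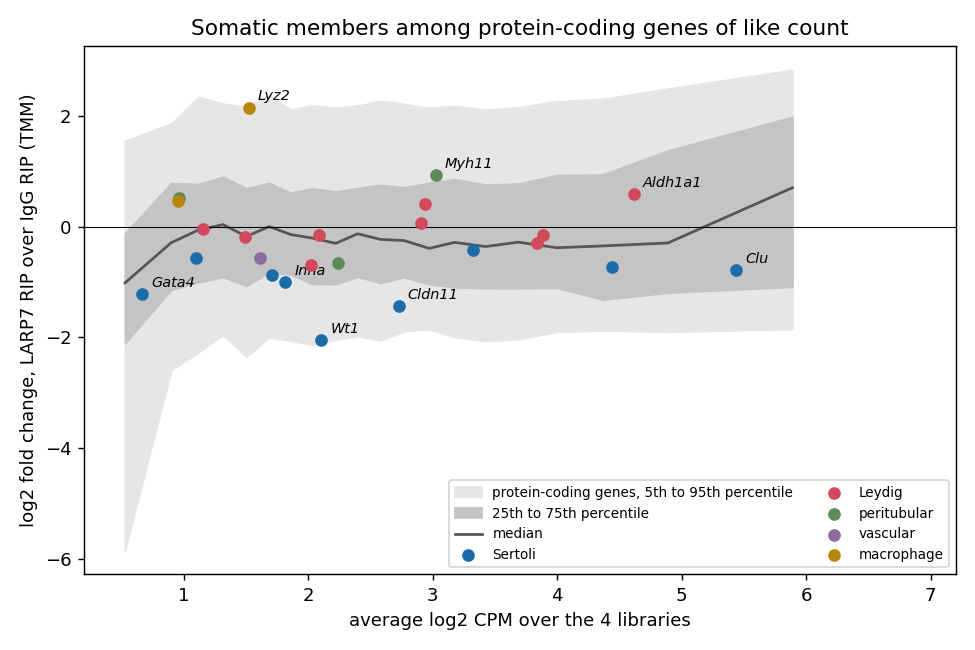
Log2 fold change (LARP7 RIP over IgG RIP, TMM) against average log2 CPM for the 24 tested members, coloured by cell type, over the spread of 9929 protein-coding genes (dark band 25th to 75th percentile, light band 5th to 95th, line the median). Blue Sertoli points lie below the line and red Leydig points around it; Wt1 and Lyz2 lie near the edges of the light band.

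Protein-coding genes of like count gave the background. In the 4 quartiles of mean expression, the median log2 fold change of protein-coding genes was -0.29, -0.15, -0.30 and -0.24, with 2.46% called higher and 3.91% lower in the first quartile and 23.0% and 19.8% in the fourth. From the lowest to the highest quartile, 7, 7, 5 and 5 of the 24 members lay in each. Within its own quartile, 4.83% to 45.6% of protein-coding genes had a lower fold change than a given Sertoli member. For Leydig members that share was 31.95% to 68.1%.

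A comparison that needs no scaling between libraries is the ratio of Sertoli to Leydig counts inside each library. The 12 Sertoli members summed to 298, 255, 1541 and 766 counts and the 10 Leydig members to 356, 320, 1000 and 483. The ratio was 0.837 and 0.797 in the LARP7 libraries and 1.54 and 1.59 in the IgG libraries, or 0.817 ± 0.0284 against 1.56 ± 0.0318 (SD, n = 2 each), 1.91 times higher with IgG. The difference was far larger than the spread between replicates. No test was made, since the members were chosen with results of these data known and 2 libraries against 2 cannot go below an exact two-sided permutation p of 0.333. Without Clu and Aldh1a1, the members with the most counts of each type, the ratio was 0.716 and 0.627 against 1.08 and 1.21. Gene by gene, the TMM log2 fold change was lower for the Sertoli gene in 79 of 81 Sertoli-Leydig pairs. Of the 9 Sertoli members, 7 lay below the lowest Leydig member. The pairs reuse the same genes and libraries, so these counts only describe the chosen genes and are no test. The gene models had a median length of 1968 nt for Sertoli members (1475 to 4255 nt) and 1902 nt for Leydig members (623 to 3609 nt). The part of length in the ratio was not tested.

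**Figure D3:**
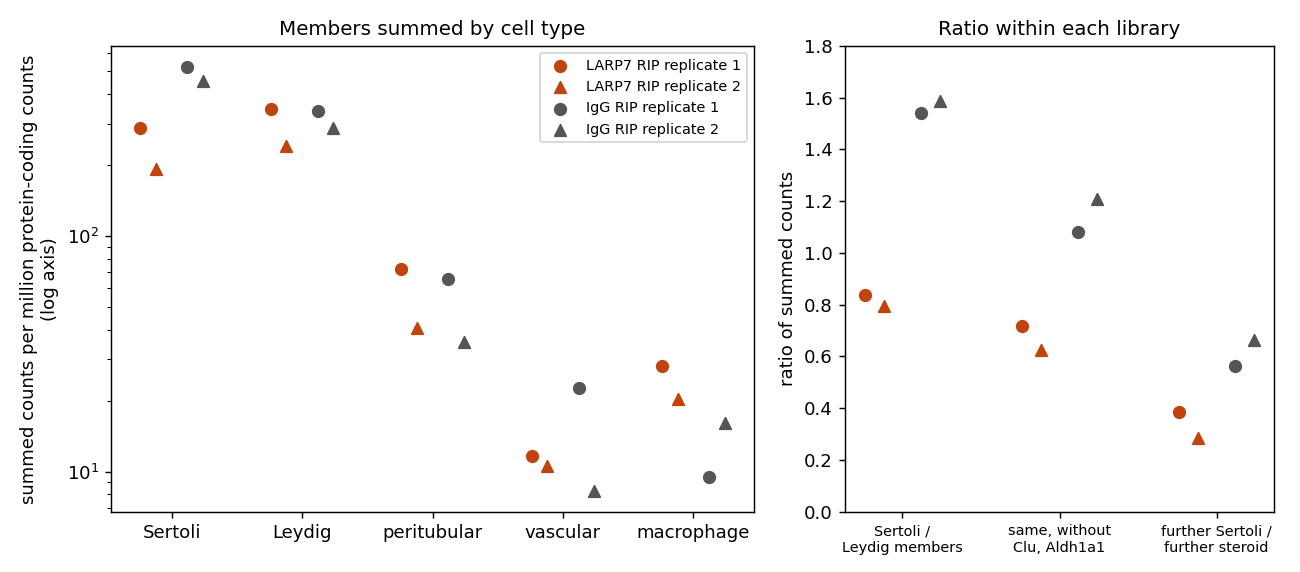
Left, summed CPM of protein-coding counts for the members of each cell type (log axis); right, ratios of summed counts within each library for the members, the members without Clu and Aldh1a1, and the further gene lists. Orange marks the LARP7 RIP, grey the IgG RIP, circles replicate 1 and triangles replicate 2; the Sertoli to Leydig ratio is near 0.8 in both LARP7 libraries and above 1.5 in both IgG libraries.

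Scaled to protein-coding counts alone (CPM of protein-coding counts), Sertoli members summed to 240.4 ± 67.7 in the LARP7 RIP and 487 ± 47.4 in the IgG RIP (SD, n = 2 each), with no overlap. Leydig members had 293 ± 72.7 and 312 ± 36.7, with overlapping libraries. Germ cell mRNAs, counted the same way, differed by stage. The 7 elongating spermatid mRNAs summed to 1348 ± 531 and 4995 ± 317 (SD, n = 2 each), and 5 of the 7 were called lower in edgeR with TMM, where 10.5% of protein-coding genes were. Of 6 round spermatid mRNAs tested 2 were lower, of 8 spermatocyte mRNAs 1 was lower, and of 5 spermatogonial mRNAs 0 were lower and 1, Zbtb16, was higher (log2 fold change 2.49). Spermatocyte mRNAs summed to 1121 ± 462 and 2260 ± 879 (SD, n = 2 each), 2.02 times more with IgG. For the Sertoli members it was 2.03 times, but the spermatocyte spread was too wide to call the 2 alike. Spermatogonial mRNAs summed to 1.01 times more with IgG. The elongating spermatid to Sertoli ratio was 5.98 and 5.05 with the LARP7 antibody against 10.02 and 10.5 with IgG, so the elongating spermatid mRNAs differed between the groups by more than the Sertoli mRNAs. The part of germ cell RNA in the Sertoli values was not tested. The labels do not say whether both antibodies met the same lysate; between lysates of bulk tissue, fewer cells of a type and less RNA per cell cannot be told apart.

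The peritubular members gave mixed values. Of 3 tested, 0 were called higher or lower (edgeR with TMM and DESeq2; 0 with an unadjusted p under 0.05 in edgeR). Myh11, smooth muscle myosin heavy chain, had 50, 35, 97 and 20 counts, 10.5 ± 3.51 against 5.37 ± 3.12 CPM (SD, n = 2 each), and a log2 fold change of 0.93 (SE 0.53, edgeR adjusted p = 0.210). Acta2, smooth muscle actin, had 11, 17, 88 and 23 counts, 3.38 ± 0.738 against 5.26 ± 2.29 CPM (SD, n = 2 each), and -0.65 (SE 0.58, edgeR adjusted p = 0.425). Their IgG libraries lay far apart, and only the Myh11 groups did not overlap with TMM. With library totals Acta2 was called lower (-2.09), as were 52.1% of protein-coding genes, and Myh11 had -0.57. Tagln, the actin-binding transgelin, had 14, 2, 4 and 17 counts, with replicates on both sides. Cnn1, calponin, had 6 counts in IgG replicate 1 and 0 elsewhere, and was not tested.

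The vascular members were the thinnest. Pecam1 and Cdh5, the adhesion molecules that define endothelium, had 1, 2, 2 and 0 and 3, 2, 10 and 1 counts and were not tested. Vwf, von Willebrand factor, had 8, 10, 55 and 13 counts, 2.19 ± 0.153 against 3.18 ± 1.58 CPM (SD, n = 2 each), and a log2 fold change of -0.56 (SE 0.68, edgeR adjusted p = 0.566). IgG replicate 1 alone stood high, and without it the value was 0.09. The posterior SD reached 24.2% of the Vwf count. With library totals Vwf was called lower (-2.02), as were 52.1% of protein-coding genes.

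Among the macrophage members, Lyz2, the lysozyme of myeloid cells, was called higher (ENSMUSG00000069516, chromosome 10, 117277541 to 117282272, GRCm38.p6). It had 19 and 18 counts in the LARP7 libraries against 15 and 5 in the IgG libraries. In TMM-scaled CPM this was 4.53 ± 0.570 against 0.981 ± 0.269 (SD, n = 2 each), a log2 fold change of 2.15 (SE 0.69, edgeR adjusted p = 0.0425), with no overlap. It lay above 95.9% of the 2483 protein-coding genes in its quartile of mean expression, but above 86.4% when quartiles were taken from the IgG counts. The size rested on the scaling: with library totals the value was 0.71 (edgeR adjusted p = 0.505), with no overlap still. The call was also lost without LARP7 replicate 1 (2.02, edgeR adjusted p = 0.233), LARP7 replicate 2 (2.29, 0.206) or IgG replicate 2 (1.99, 0.0692), and with DESeq2 (2.16, 0.153). Lyz1, its near-identical neighbour, could have shared these reads; the posterior SD was at most 4.20% of the Lyz2 count.

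The other macrophage members were not called. Csf1r, the receptor of the macrophage growth factor CSF1, had 8, 8, 13 and 12 counts, 1.96 ± 0.172 against 1.46 ± 0.624 CPM (SD, n = 2 each), and a log2 fold change of 0.46 (SE 0.79, edgeR adjusted p = 0.690). Cd68, a lysosomal glycoprotein, had 2, 1, 0 and 10 counts and was not tested. The 3 members summed to 29, 27, 28 and 27 raw counts, in libraries that differed in total and in protein-coding content. Scaled to protein-coding counts alone, this was 24.2 ± 5.42 in the LARP7 RIP and 12.7 ± 4.62 in the IgG RIP (SD, n = 2 each), with no overlap. As a share of all counts the groups overlapped. Lyz2 alone gave 19, 18, 15 and 5 of the raw counts.

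**Figure D4:**
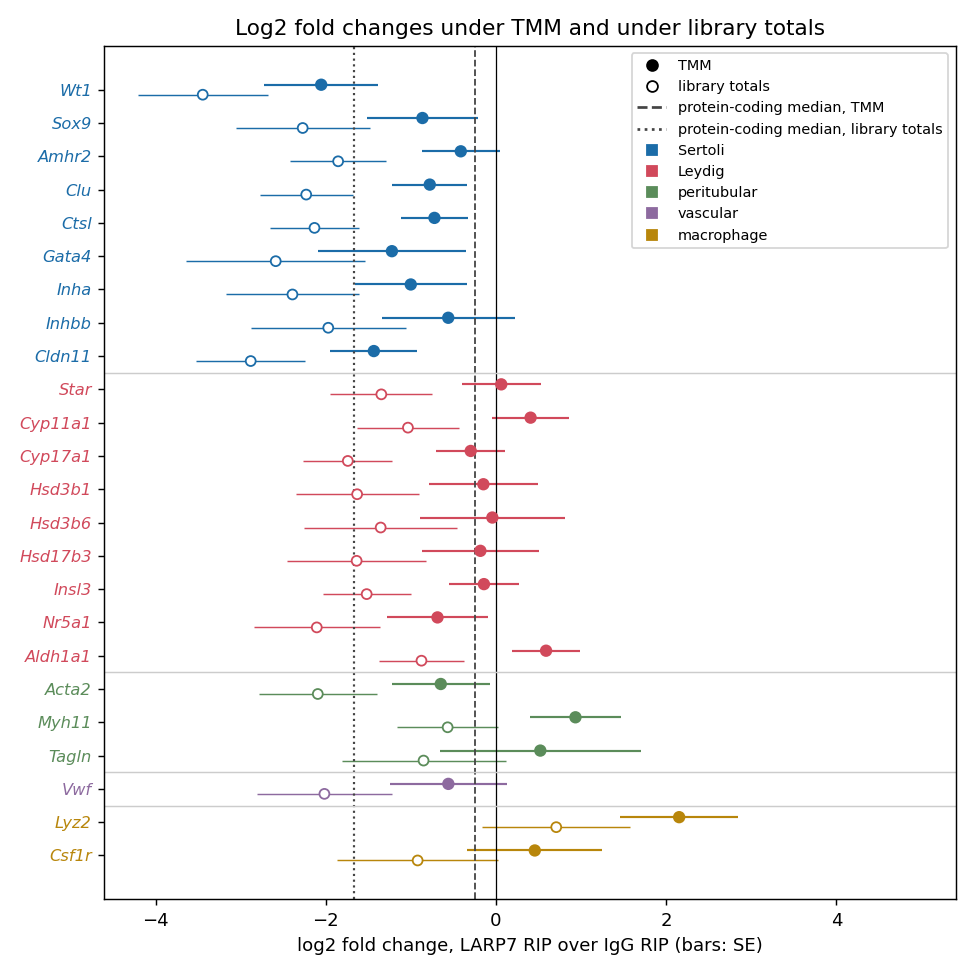
Log2 fold change (LARP7 RIP over IgG RIP) of the 24 tested members with SE bars, with TMM (filled) and library totals (open); colours mark the cell type, and the dashed and dotted lines mark the protein-coding medians of -0.25 (TMM) and -1.67 (library totals). Each member moves left by about the same step as the median, so its place relative to other mRNAs is kept while its sign can change.

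Levels of different genes were compared in TPM, which divides counts by length. In the IgG RIP the order ran from Clu (5.11 ± 2.81 TPM, SD, n = 2) and Insl3 (3.23 ± 0.530) to Ctsl (1.71 ± 0.474), Cyp17a1 (1.30 ± 0.792) and Aldh1a1 (1.30 ± 0.806). The spreads of Clu and Insl3 overlapped, though Clu was higher inside each IgG library (7.10 against 3.61 and 3.12 against 2.86 TPM), only narrowly in replicate 2. In the LARP7 RIP Insl3 (0.515 ± 0.276 TPM) and Clu (0.415 ± 0.120) again led, followed by Aldh1a1 (0.280 ± 0.0707).

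Further genes of the same cells, none of them members, were counted in the same fit. Of 25 further Sertoli genes 13 were tested and 0 called in edgeR, with a median log2 fold change of -0.49; the lowest p-values were those of Cdh2, N-cadherin (-1.61, edgeR adjusted p = 0.0578), and Mro (-2.10, 0.0927). Of 25 further genes of cholesterol handling and steroid synthesis 18 were tested, of which 2 rose, 1 fell and the median was -0.05. These shares are near or below the 11% higher and 10.5% lower among protein-coding genes. The ratio of these further Sertoli to further steroid genes was 0.384 and 0.285 in the LARP7 libraries and 0.563 and 0.663 in the IgG libraries, without overlap. This ratio leaned on Soat1, itself called higher. Soat1 alone held 345, 567, 363 and 260 of the 800, 884, 2053 and 935 steroid counts. Whether the groups stay apart without Soat1 was not tested, so this ratio is no second support for the members' ratio. Both further lists were drawn up with earlier results of the series known, though they share no gene with the members.

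The further genes that were called came from the lists of several cell types. Which cells of the testis made these mRNAs was not tested. Soat1, which stores cholesterol as esters, had 345, 567, 363 and 260 counts and rose (log2 fold change 1.66, SE 0.50, edgeR adjusted p = 0.0363), as did Hsd17b7, an enzyme of cholesterol synthesis, with 24, 23, 23 and 5 counts (2.08, SE 0.65, 0.0387). Lipe, hormone-sensitive lipase, which germ cells also make, had 47, 36, 417 and 172 counts and fell (-1.55, SE 0.41, edgeR adjusted p = 0.0233). Soat1 was called only without LARP7 replicate 1 (1.89) among fits that left out a library, Hsd17b7 only without IgG replicate 1 (2.82), and Lipe only without LARP7 replicate 1 (-1.87) or IgG replicate 2 (-1.62). With library totals Soat1 and Hsd17b7 were not called (0.30 and 0.61) and Lipe was (-3.00). DESeq2 called Soat1 (1.63, DESeq2 adjusted p = 0.00864) and Lipe (-1.58, 0.0348) but not Hsd17b7 (2.10, 0.129).

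Outside the steroid genes, Actg2, smooth muscle gamma actin, had 11, 6, 117 and 81 counts and fell (log2 fold change -2.37, SE 0.56, edgeR adjusted p = 0.0165). It was not called without LARP7 replicate 2 (-1.93, edgeR adjusted p = 0.0934). Aif1, a calcium-binding protein of macrophages, had 12, 5, 226 and 52 counts and fell (-2.62, SE 0.62, edgeR adjusted p = 0.0168), against the direction of Lyz2, and was not called without LARP7 replicate 2 (-2.05, 0.0915). Cd34, a surface protein of endothelium and stromal cells, had 39, 71, 59 and 15 counts and rose (1.89, SE 0.51, edgeR adjusted p = 0.0249). Cd34 was not called with library totals (0.45), without LARP7 replicate 2 (1.51) or without IgG replicate 2 (1.57). DESeq2 did not call it either (1.89, DESeq2 adjusted p = 0.0572). Of 10 further peritubular genes tested 0 were higher and 1 lower, of 3 further macrophage genes 0 and 1, and Cd34 was the only further vascular gene tested of 13. Alas2, the only blood gene tested of 5, was not called (-0.81, edgeR adjusted p = 0.421).

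Length went with the fold change across protein-coding genes. In the 4 quartiles of gene model length, the median log2 fold change was -0.46, -0.44, -0.25 and 0.23 from the shortest to the longest, and 19.5% of the longest quartile were higher against 7.41% of the shortest. Of the 24 members tested, 4, 13, 2 and 5 lay in these quartiles. Myh11, the longest member at 6632 nt, had the highest fold change of those not called; Lyz2, at 1316 nt, was in the shortest quartile. No small RNA gene with counts lay inside a member: the only one found in the RefSeq table, a microRNA within Csf1r, had 0 counts in all 4 libraries.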

How the data were processed

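The 4 RIP libraries were 2 of LARP7 and 2 of IgG. Testes were lysed at 150 mM NaCl and beads washed at 500 mM NaCl after 4 h, per the labels' protocols, and small RNA libraries of 15 to 300 nt were made. The submitters' processing notes name mm10 and the tools cutadapt, RSEM and Bowtie2, whose order and versions are not given in the sources used. The authors deposited expected counts (estimated counts that need not be whole) and TPM per gene model, scaled by effective length. The deposited posterior SD of each count is a signal in counts, and lengths are in nt.

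Here 35715 symbols (70.6%) matched the RefSeq table of GRCm38.p6, which gave biotypes and coordinates. Counts were rounded and tested with edgeR 4.0.16 in R 4.3.3 (filterByExpr, TMM, robust quasi-likelihood F test, two-sided, Benjamini-Hochberg adjustment over 12234 genes, threshold 0.05); antibody was the only term. TMM factors were 0.558, 0.673, 1.85 and 1.44. SE is the unshrunk log2 fold change over the square root of F, and errors are SDs over 2 libraries. DESeq2 1.42.0 and limma 3.58.1 served alternatives. Members and lists were chosen with earlier results of these data known. Named genes are all members, and at most 3 genes of each further list, those with the smallest adjusted p. The edgeR fit was tested on simulated data with far fewer changed genes than the real fit called, where 25.2% of 135 calls were false.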

Additional observations from a re-analysis of the deposited data

How the results depend on the processing

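Library totals, under which 52.1% of protein-coding genes were called lower, and log2(TPM + 0.1) changed most. Library totals gave 8 lower Sertoli, 5 Leydig, 1 peritubular and 1 vascular members, 0 higher macrophage members, 0 higher and 26 lower further somatic genes, and 0 higher and 22 lower germ cell genes. They reversed Star (-1.35), Cyp11a1 (-1.03), Aldh1a1 (-0.87), Myh11 (-0.57), Tagln (-0.85) and Csf1r (-0.92). Limma on log2(TPM + 0.1), which called 6369 of 12234 genes lower and 93 higher, gave 9, 7, 2 and 1 lower members of the same types and 0 higher macrophage members, 0 and 26 further genes and 0 and 23 germ cell genes. It reversed Star (-1.43), Cyp11a1 (-1.41), Aldh1a1 (-1.76), Myh11 (-0.66), Tagln (-1.25), Lyz2 (-0.23) and Csf1r (-0.35). Limma on log2(TPM + 1) called 0 genes in all, with 17 members at an unadjusted p under 0.05, and reversed the same genes (-0.29, -0.37, -0.80, -0.12, -0.23, -0.045 and -0.042). edgeR with DESeq2 size factors called 0 lower Sertoli members and DESeq2 0 lower Sertoli and 0 higher macrophage members (2 members had an unadjusted p under 0.05) and 1 higher further gene; without a filter 0 macrophage members were higher. Star was -0.023 without a filter, and Hsd3b6 was 0.023 with DESeq2 size factors, 0.016 with the stricter filter and 0.097 with protein-coding genes only.

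Leaving out 1 library gave 0 to 1 lower Sertoli and 0 to 1 higher macrophage members, 0 to 2 higher and 0 to 4 lower further genes, and 0 to 1 higher and 2 to 7 lower germ cell genes. Members that changed sign ranged from -0.23 to 0.29 (Star), -1.18 to 0.47 (Hsd3b1), -1.33 to 0.58 (Hsd3b6), -0.54 to 0.11 (Hsd17b3), -0.43 to 0.25 (Insl3), -1.65 to 2.69 (Tagln) and -0.91 to 0.088 (Vwf). The cause of these changes was not tested.

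The Sertoli to Leydig ratio, 1.91 times higher with IgG, was 1.84 with TPM and 1.71 without Clu and Aldh1a1, both chosen after seeing the data. The Sertoli share of all counts was 4.79 times higher with IgG, 12.0 by TPM and 2.03 among protein-coding counts; for Leydig members it was 2.51, 6.28 and 1.07. The replicate block, a fit in which libraries share only a number (correlation of deviations 0.2), lost Wt1 (-2.03, adjusted p = 0.0506) and called Cldn11. With few counts per member, changes of 4-fold or less may go uncalled, at a share that was not measured for this fit.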
